A study of Mus musculus with 7 samples.

Results

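The 10 genes described here make, carry and load the peptides that MHC class I molecules show at the cell surface, or control that set of genes. They are Tap1, Tap2, Tapbp, B2m, Psmb8, Psmb9, Psmb10, Psme1, Psme2 and Nlrc5. They were listed by symbol for their function, with earlier results of these data known. All 10 were found among the 24084 genes that the files list, and all 10 passed the filter on low counts that left 16226 genes for testing. RNA was measured in 7 libraries of tumor-associated macrophages, sorted as F4/80+ cells by FACS from Lewis lung carcinoma (LLC) tumors, a mouse lung tumor line injected subcutaneously. In 3 libraries the mice were LysM-Cre;Dicer-/-, with both copies of a loxP-flanked Dicer1 deleted where Cre had acted. The 4 control libraries came from LysM-Cre;Dicer+/+ mice, which carried the same homozygous Cre and an intact Dicer1. Dicer1 is the enzyme that releases mature microRNAs from their hairpin precursors, and the comparison addressed how its loss alters macrophages in a tumor. Cre was expressed from the lysozyme M locus, so deletion was expected in myeloid cells and not in other cells of the sort. Age and sex are not in the labels, nor is whether the libraries derive from different animals. The p-values therefore cover only the spread from library to library, which may be technical.

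Class I molecules consist of a heavy chain and the constant light chain beta-2-microglobulin, with a short peptide in the groove of the heavy chain. The proteasome cuts cytosolic proteins into peptides. In cells exposed to interferon-gamma, 3 catalytic subunits of its core are exchanged for induced ones, and an 11S cap (PA28) can be added at its ends. The TAP transporter moves the peptides into the endoplasmic reticulum, where tapasin and chaperones load them. Macrophages present antigen in this way to CD8+ T cells, and most genes of the pathway are known to respond to interferon-gamma.

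Tap1, Tap2, Tapbp, Psmb8 and Psmb9 lie close together in the MHC on chromosome 17, in GENCODE mouse release 21 (GRCm38). The build of the deposited files is not given in the sources used here, so these positions come from that annotation. Psmb9 spans 34181987 to 34187764 on the minus strand and Tap1 34187553 to 34197225 on the plus strand. Psmb8 follows at 34197721 to 34201454, Tap2 at 34203527 to 34216321, and Tapbp lies apart at 33915899 to 33929292. B2m lies on chromosome 2, Psmb10 and Nlrc5 on chromosome 8, and Psme1 and Psme2 side by side on chromosome 14. Tap1 and Psmb9 are transcribed away from each other from starts that are 226 bases apart in RefSeq (GRCm38.p6), so their promoters are largely the same DNA. Windows from 250 bases before to 50 after the start were found for 8 of the 10 genes, and the windows of Tap1 and Psmb9 shared 275 identical bases. Tap2 and Nlrc5 were not among them. The windows of Tap1, B2m and Psmb8 are printed, the first because 2 members share it and the others as 2 of the 3 windows with a match to an interferon-type motif. Motifs were searched on both strands, and capitals mark each match. They were CCAAT (bound by NF-Y), TGACG (bound by CREB and ATF factors), GAAANNGAAA (the form of an interferon-stimulated response element) and TTCNNNGAA (the form of a STAT-bound gamma-activated site).
Tap1, chr17:34187306-34187605, plus strand: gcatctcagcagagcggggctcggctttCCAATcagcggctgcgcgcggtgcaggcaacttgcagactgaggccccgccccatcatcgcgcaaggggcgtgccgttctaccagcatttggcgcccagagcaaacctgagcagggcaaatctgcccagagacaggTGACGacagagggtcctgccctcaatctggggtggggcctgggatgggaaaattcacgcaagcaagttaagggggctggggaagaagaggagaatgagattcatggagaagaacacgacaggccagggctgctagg
B2m, chr2:122147437-122147736, plus strand: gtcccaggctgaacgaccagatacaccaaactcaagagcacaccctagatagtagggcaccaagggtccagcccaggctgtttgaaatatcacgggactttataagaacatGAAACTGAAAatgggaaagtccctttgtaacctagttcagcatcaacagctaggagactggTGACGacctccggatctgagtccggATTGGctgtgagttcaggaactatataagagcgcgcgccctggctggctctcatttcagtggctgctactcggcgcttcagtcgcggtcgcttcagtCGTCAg
Psmb8, chr17:34197945-34198244, plus strand: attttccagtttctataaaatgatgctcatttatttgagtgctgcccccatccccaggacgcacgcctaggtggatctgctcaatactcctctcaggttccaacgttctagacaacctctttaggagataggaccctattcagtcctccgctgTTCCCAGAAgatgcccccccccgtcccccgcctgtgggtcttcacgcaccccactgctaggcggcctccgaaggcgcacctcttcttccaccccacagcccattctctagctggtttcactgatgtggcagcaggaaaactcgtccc
The Tap1 window holds CCAAT at -222 and TGACG at -86, counted from the start, where the first transcribed base is 1. In B2m, GAAACTGAAA begins at -139, TGACG at -78 and CCAAT, on the minus strand, at -53, and a second TGACG, also on the minus strand, at 45. Psmb8 holds TTCCCAGAA at -97 from its RefSeq start. That window lies wholly inside the GENCODE span of Psmb8, so the match is not upstream of the whole gene. Psme1, not printed, holds GAAANNGAAA on the minus strand at 10, past its start. Among all 32851 promoter windows, 3.44% hold GAAANNGAAA, 8.3% TTCNNNGAA, 37.4% CCAAT and 20.8% TGACG. A match describes the letters and is not a measured binding site.

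The libraries held 42.97 to 51.2 M uniquely placed reads. PCR-amplified reads without molecular identifiers are not independent molecules, and the spread between libraries (a biological coefficient of variation of 45.1%) limited the precision more than depth. Dicer1 itself was at 7.85, 6.86 and 7.85 counts-per-million (CPM, scaled by TMM factors) in Dicer1-deleted replicates 1, 2 and 3. In the controls it was at 15.7 to 18.6 CPM. Its edgeR log2 fold change was -1.16, with an adjusted p of 0.150 in edgeR and 4.96e-05 in DESeq2. Reads of Dicer1 thus remained, and whether they came from intact transcript was not tested. The 8 macrophage markers summed to between 6056 and 9198 CPM in the Dicer1-deleted and 5947 and 8564 CPM in the control libraries, with Cd68 the largest share. Lyz2, the gene whose locus carries the Cre, was lower without overlap, at 50.7 to 67.2 against 103 to 212 CPM (log2 fold change -1.29, DESeq2 adjusted p = 0.0144). Dicer1-deleted replicate 2 stood apart. Relative to the mean of all libraries, its transcripts of 1000 bases were 0.30 higher on the log2 scale, against 0.18 and 0.21 in control replicates 1 and 2 and -0.15 to -0.21 in the other 4 libraries.

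All 10 genes had a higher fitted level in Dicer1-deleted macrophages, with a median log2 fold change of 0.81, against 0.03 over all genes, of which 52.6% lay above 0. None passed edgeR's quasi-likelihood test at an adjusted p under 0.05 (0.00616% of all genes tested passed as higher), and adjusted p-values ran from 0.156 to 0.930. Tap1 alone rose in DESeq2, where 0.924% of all genes were called higher. At an unadjusted edgeR p under 0.05, 4 of the 10 were higher (Tap1, Tap2, Nlrc5 and Psme1), against 3.88% of all genes. For Tap1, Tap2 and Nlrc5 the lowest Dicer1-deleted library lay above the highest control, and 3.86% of all genes showed such a gap in that direction. Leaving out Dicer1-deleted replicate 2 lowered the median to 0.43, with -0.03 over all genes.

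**Figure D1:**
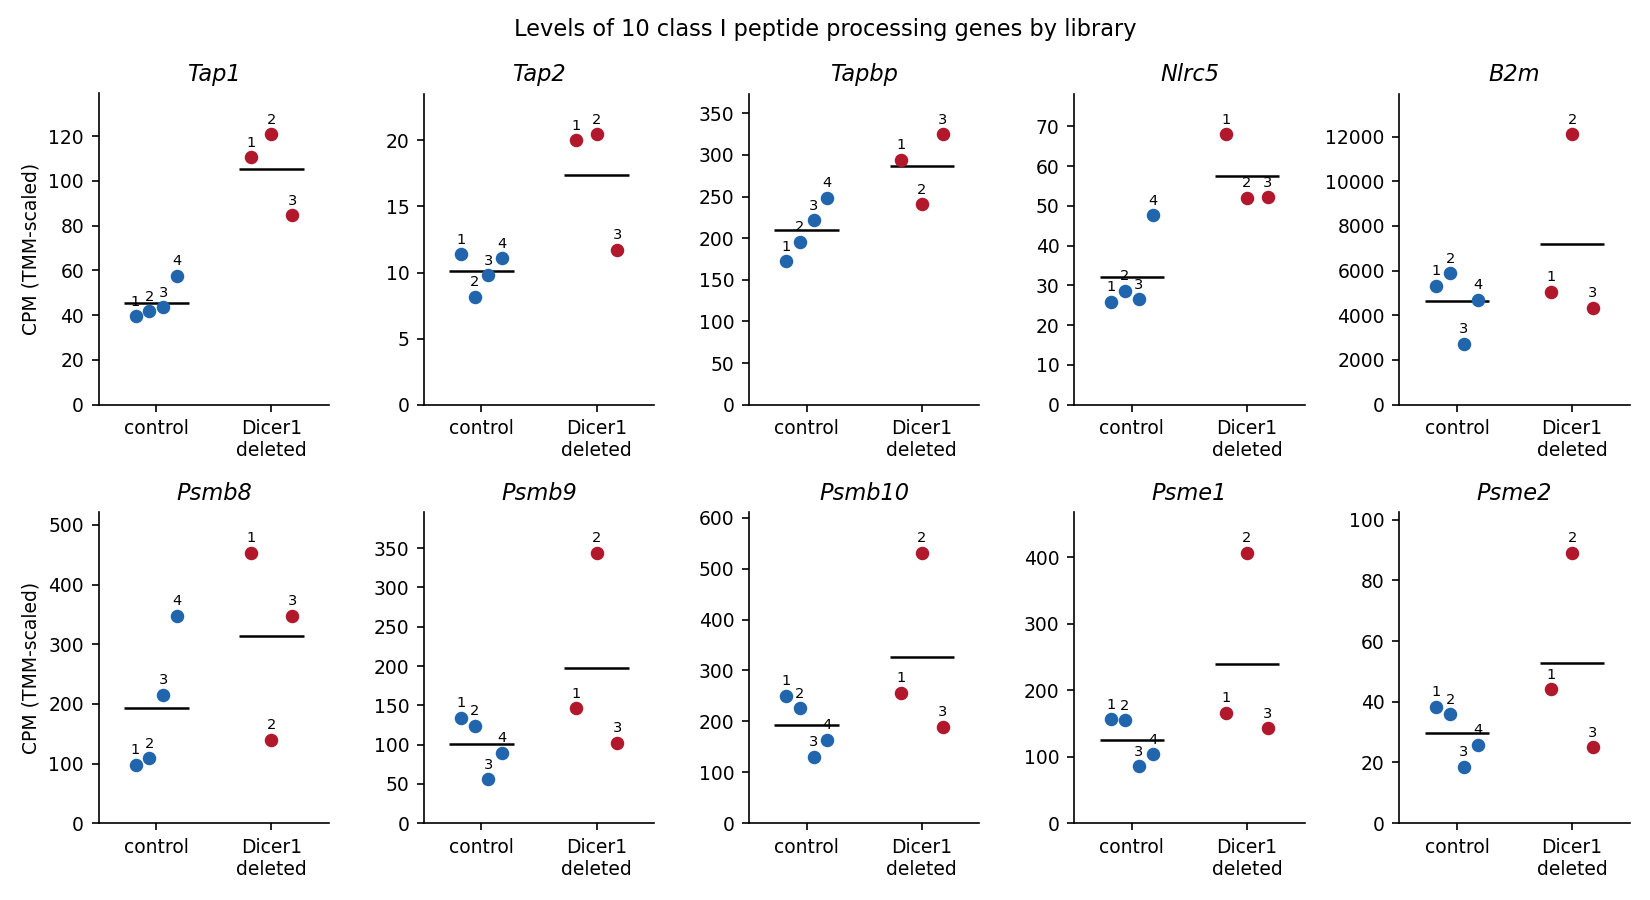
Level of each of the 10 genes in TMM-scaled CPM (linear axis from 0) by library, with the replicate number above each point and a bar at the group mean, for 4 control and 3 Dicer1-deleted libraries. Tap1, Tap2 and Nlrc5 show no overlap between the groups, while B2m, Psmb9, Psmb10, Psme1 and Psme2 are far highest in Dicer1-deleted replicate 2.

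Per length, the genes spanned a wide range, which is given on the authors' RPKM scale. In the control libraries B2m was highest at 5313 ± 1389 RPKM (SD, n = 4), between 3321 and 6400. Psmb8 (157 ± 97.0), Psmb10 (149 ± 38.6) and Psme1 (146 ± 37.0) followed and overlapped with one another. Tapbp (75.7 ± 13.6) overlapped with Psmb8 only. Psmb9 (27.1 ± 8.88) and Psme2 (16.5 ± 4.64) overlapped, and below them Tap1 (8.26 ± 1.57), Nlrc5 (4.37 ± 1.43) and Tap2 (3.12 ± 0.515) did not overlap with their neighbours in this order. In the Dicer1-deleted libraries B2m stood at 7613 ± 3635 RPKM (n = 3) and Tap2 again lowest at 5.10 ± 1.26. The lengths implied by the counts and RPKM were 5.62 kb for Tap1, 3.75 kb for Psmb9 and 1.81 kb for Psme2. The longest GENCODE transcripts have 3911, 2884 and 962 bases, so per-length levels of these genes are lower than over one spliced transcript. For Psme1 and Psmb8 the implied lengths were 0.866 and 1.26 kb, below the longest transcripts of 1986 and 1907 bases. Their per-length levels are higher than over that transcript, so the order of the genes depends on the lengths used.

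Tap1 encodes one of the subunits of the peptide transporter. It was at 110.4, 121 and 84.6 CPM in Dicer1-deleted replicates 1, 2 and 3 and at 39.6, 41.8, 43.5 and 57.6 CPM in control replicates 1 to 4. Every Dicer1-deleted library lay above every control library, and the group means were 105 ± 18.7 CPM (SD, n = 3) and 45.6 ± 8.12 CPM (n = 4). The log2 fold change was 1.21 ± 0.25 (SE), with an adjusted p of 0.156 in edgeR (unadjusted 0.000871) and 9.69e-04 in DESeq2. With any 1 library left out, DESeq2's adjusted p for Tap1 stayed between 2.12e-04 and 0.0302. In edgeR it ran from 0.177 to 0.422 over the same omissions and did not pass. These subsets share most of their libraries, so they are no separate support. Tap1 shares 212 exon bases with Psmb9 on the opposite strand, 3.87% of its exon length, and the kit kept no strand, so reads there cannot be told apart.

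Tap2, the other transporter subunit, was at 20.01, 20.5 and 11.7 CPM in the Dicer1-deleted libraries and at 11.4, 8.17, 9.81 and 11.1 CPM in the controls. The groups did not overlap, but Dicer1-deleted replicate 3 lay just above the highest control. The log2 fold change was 0.78 ± 0.28, with an adjusted p of 0.448 in edgeR and 0.203 in DESeq2. Of its reads, 18.4% were placed at several genes, and with these included the value was 0.75. Noncoding genes overlap its exons on the opposite strand, Gm15821 over 533 bases and Gm20496 over 165.

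Tapbp encodes tapasin, which holds an empty class I molecule at the transporter while peptide is loaded. It was at 294, 241 and 325 CPM against 172, 196, 222 and 248.8 CPM. Dicer1-deleted replicate 2 lay below control replicate 4, and the other 2 lay above all controls. Its log2 fold change of 0.45 ± 0.25 was the smallest of the 10 genes and did not pass (adjusted p = 0.792 in edgeR). An antisense gene, Gm19412, covers 24.9% of its exon bases.

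Nlrc5 encodes the transactivator that drives class I genes, as CIITA drives class II. It was at 68.1, 52.0 and 52.3 CPM in the Dicer1-deleted libraries and at 25.9, 28.7, 26.6 and 47.7 CPM in the controls. Control replicate 4 stood far above the other 3 and close to Dicer1-deleted replicates 2 and 3. The groups did not overlap on this scale, but without TMM factors Dicer1-deleted replicate 2 (45.1 CPM) lay below control replicate 4 (48.7 CPM). The log2 fold change was 0.83 ± 0.29, with an adjusted p of 0.424 in edgeR and 0.170 in DESeq2. Without control replicate 4, DESeq2 gave 1.11 and an adjusted p of 0.00193, while edgeR gave 1.09 and an adjusted p of 0.259. Leaving out the highest control of a gene raises its difference, so this is no separate support. Ciita was at 50.6, 38.3 and 27.2 CPM against 29.0, 21.3, 15.5 and 27.6 CPM, with a log2 fold change of 0.73 ± 0.31 that did not pass (adjusted p = 0.590 in edgeR). The 9 factors that work at these promoters with NLRC5 or CIITA, Ciita among them, split into 5 above and 4 below 0, with a median of 0.09 and 0 calls. Nfyc, a subunit of NF-Y, was at 0.55 and Atf1 at -0.37.

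B2m encodes the light chain common to class I molecules. It was at 5060.0, 12109 and 4335 CPM in the Dicer1-deleted libraries and at 5330, 5893, 2729 and 4693 CPM in the controls. Dicer1-deleted replicate 2 was by far the highest, and the other 2 lay within the control range. The log2 fold change of 0.62 ± 0.43 did not pass (adjusted p = 0.899 in edgeR), and was 0.00 without Dicer1-deleted replicate 2.

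The class I heavy chains that pair with it were measured separately. Of 17 genes on the list 16 were matched, with H2-L not matched, and 15 were tested. Of these 13 had a positive log2 fold change, with a median of 0.78, and 0.93 without Dicer1-deleted replicate 2. None passed in edgeR. H2-T10, a nonclassical heavy chain, rose in DESeq2, with a log2 fold change of 1.10 in edgeR (DESeq2 adjusted p = 0.0114). Its levels were 61.0, 66.3 and 38.5 CPM against 28.2, 29.2, 21.3 and 24.6 CPM. H2-K1, a classical heavy chain, was at 1550.2, 1119 and 1485 CPM against 493, 554, 871 and 1258 CPM, a log2 fold change of 0.80 ± 0.37 (edgeR adjusted p = 0.649). H2-D1 was at 577, 1659 and 2725 CPM against 696, 808, 492 and 621 CPM, at 1.34 ± 0.46 (edgeR adjusted p = 0.424). Dicer1-deleted replicate 1 lay inside the control range for H2-D1 while the other 2 stood far above it. H2-Q4 was at 1.002 and H2-M2 at -1.20. These genes are close copies of one another, so the split of reads among them is uncertain.

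Psmb8, Psmb9 and Psmb10 encode the induced catalytic subunits, which take the places of Psmb5, Psmb6 and Psmb7 in the proteasome core. Psmb9 was at 146, 344 and 103 CPM in the Dicer1-deleted libraries and at 134, 124, 55.7 and 89.5 CPM in the controls. Psmb10 was at 257, 531 and 189.7 CPM against 250.1, 226, 131 and 164 CPM. Both were far highest in Dicer1-deleted replicate 2, and Dicer1-deleted replicate 3 lay within the control range of each. Psmb8 was at 454, 140.0 and 348 CPM against 97.9, 109, 216 and 348 CPM. It went the other way in the library that stood apart, with Dicer1-deleted replicate 2 and control replicates 1 and 2 the 3 lowest of the 7. The log2 fold changes were 0.97 ± 0.45 for Psmb9, 0.76 ± 0.40 for Psmb10 and 0.70 ± 0.52 for Psmb8, with edgeR adjusted p-values of 0.670, 0.735 and 0.930. Without Dicer1-deleted replicate 2 they were 0.29, 0.20 and 1.05.

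The constitutive counterparts were also highest in Dicer1-deleted replicate 2, so each induced subunit was set against its counterpart within each library. These are ratios of counts, not corrected for length, and are compared only between libraries. The Psmb9 to Psmb6 ratio was 0.704, 0.695 and 0.625 in the Dicer1-deleted libraries and 0.456, 0.408, 0.3002 and 0.443 in the controls. Every Dicer1-deleted library lay above every control, and replicate 2 no longer stood apart. The mean log2 difference was 0.76, with a two-sided exact permutation p of 0.0286, the smallest that the 35 splits of 7 libraries allow, and 0.0857 adjusted over the 3 ratios. The induced subunits were listed with earlier results of these data known, so p-values of these ratios are no independent support. The Psmb10 to Psmb7 ratio was 2.29, 2.54 and 1.75 against 1.59, 1.497, 1.502 and 1.79. Control replicate 4 lay above Dicer1-deleted replicate 3, and the log2 difference of 0.44 had an exact permutation p of 0.0571 (0.0857 adjusted). The Psmb8 to Psmb5 ratio was 10.4, 1.28 and 9.62 against 1.84, 1.75, 5.85 and 8.65. It ran from 1.28 to 10.4 within the Dicer1-deleted group alone, and its log2 difference of 0.50 had an exact permutation p of 0.686. Psmb8 shares 14.7% of its exon bases with the antisense gene Gm20496.

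**Figure D2:**
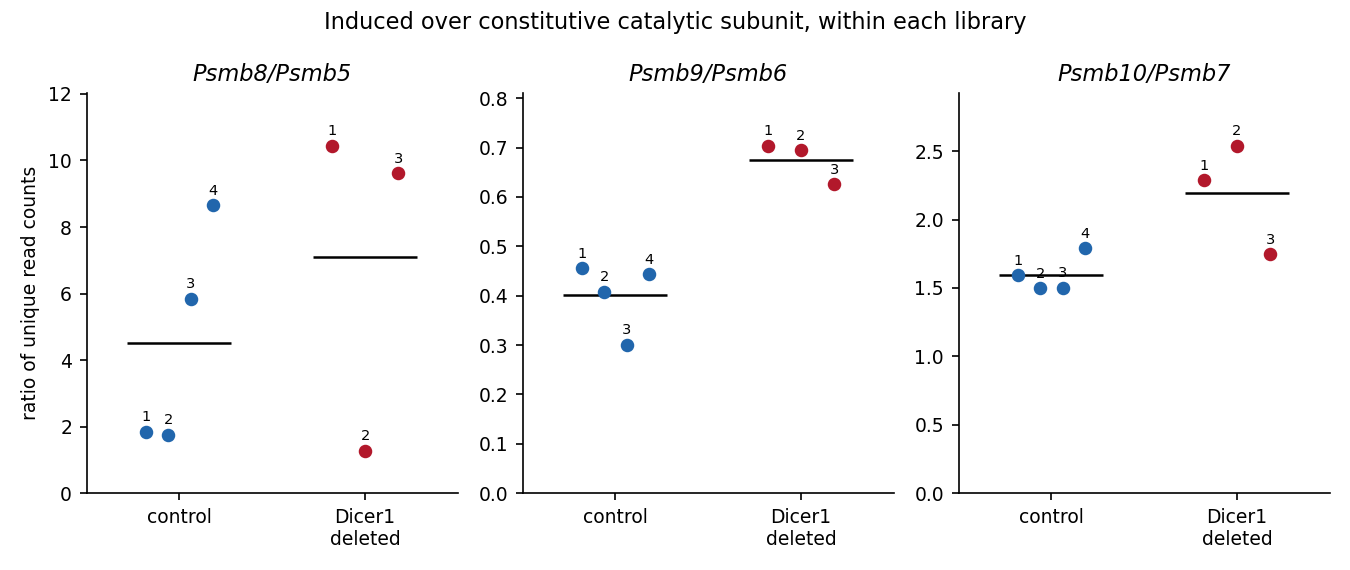
Ratio of unique read counts of each induced catalytic subunit to its constitutive counterpart (linear axes from 0), by library, with the replicate number above each point and a bar at the group mean. For Psmb9 to Psmb6 the 3 Dicer1-deleted libraries, at 0.625 to 0.704, all lie above the 4 controls, at 0.3002 to 0.456, and the other pairs overlap.

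Psme1 and Psme2 encode the alpha and beta subunits of the 11S cap. Psme1 was at 167, 407 and 143 CPM against 157, 155, 86.0 and 104 CPM, with Dicer1-deleted replicate 3 inside the control range. Its log2 fold change was 0.93 ± 0.41 (adjusted p = 0.614 in edgeR). Psme2 was at 44.1, 89.2 and 25.1 CPM against 38.4, 36.0, 18.6 and 25.9 CPM, at 0.83 ± 0.43 (adjusted p = 0.734 in edgeR). Without Dicer1-deleted replicate 2 the values were 0.29 and 0.21. Psme2b, a single-exon copy of Psme2 on chromosome 11, held far more reads than Psme2, at 472, 1101 and 311 CPM against 482, 419, 236 and 294 CPM. How reads were divided between Psme2 and this near-identical copy is not given in the sources used here, so the level of Psme2 is uncertain. The reads of both summed gave 0.81 ± 0.45 (adjusted p = 0.774 in edgeR) and 0.12 without Dicer1-deleted replicate 2. Psme3, the gamma subunit of a nuclear cap, was at 0.29 ± 0.27, and Psme4, a separate activator of the core, at 0.21 ± 0.28. Neither passed.

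The 10 genes fell into sets by how they varied over the 7 libraries. B2m, Psmb9, Psmb10, Psme1 and Psme2 varied together, with pairwise Pearson correlations of log2 CPM between 0.95 and 0.99. Psmb8 was at -0.31 to -0.38 with each of these 5 genes and at 0.87 with Tapbp. Tap1 was closest to Nlrc5 (0.92) and Tap2 (0.89). These correlations describe 7 libraries, share the group difference, the scaling and the length trend of the libraries, and carry no test. Of the 10 genes, 7 were highest in Dicer1-deleted replicate 2, 2 in replicate 1 and 1 in replicate 3. Over all 16226 genes tested, 4272 were highest in Dicer1-deleted replicate 2, as were 9 of the 11 noncatalytic subunits of the proteasome core. The lowest value lay in control replicate 3 for 5 of the 10 genes, in control replicate 1 for 4 and in control replicate 2 for 1. The share of all genes lowest in each library was not computed.

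With the length trend of each library taken out, the median of the 10 genes was 0.83, and Psmb9 and Psmb8 were at 1.10 and 0.72. All 10 differences were positive among the 3 libraries with high short transcripts (Dicer1-deleted replicate 2 against control replicates 1 and 2), from 0.39 to 1.57. They were also positive among the other 4, from 0.39 to 0.95. Over all genes tested, 49.3% and 49.6% were positive in the same splits. These samples were split by the data after the values were seen, so no test is given. The split does not hold the trend fixed. For transcripts of 500 bases Dicer1-deleted replicate 2 was at 0.55 on the log2 scale, against 0.25 and 0.28 in control replicates 1 and 2. The titles carry a code, 4 or 5, of unstated meaning, and within each code all 10 differences were again positive, Tap1 at 1.27 and 1.25 and B2m at 0.30 and 0.31. Code 4 holds 2 Dicer1-deleted libraries and 1 control and code 5 holds 1 and 3, and 46.0% and 51.9% of all genes tested were positive there. The part of the length trend in the group differences was not tested.

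**Figure D3:**
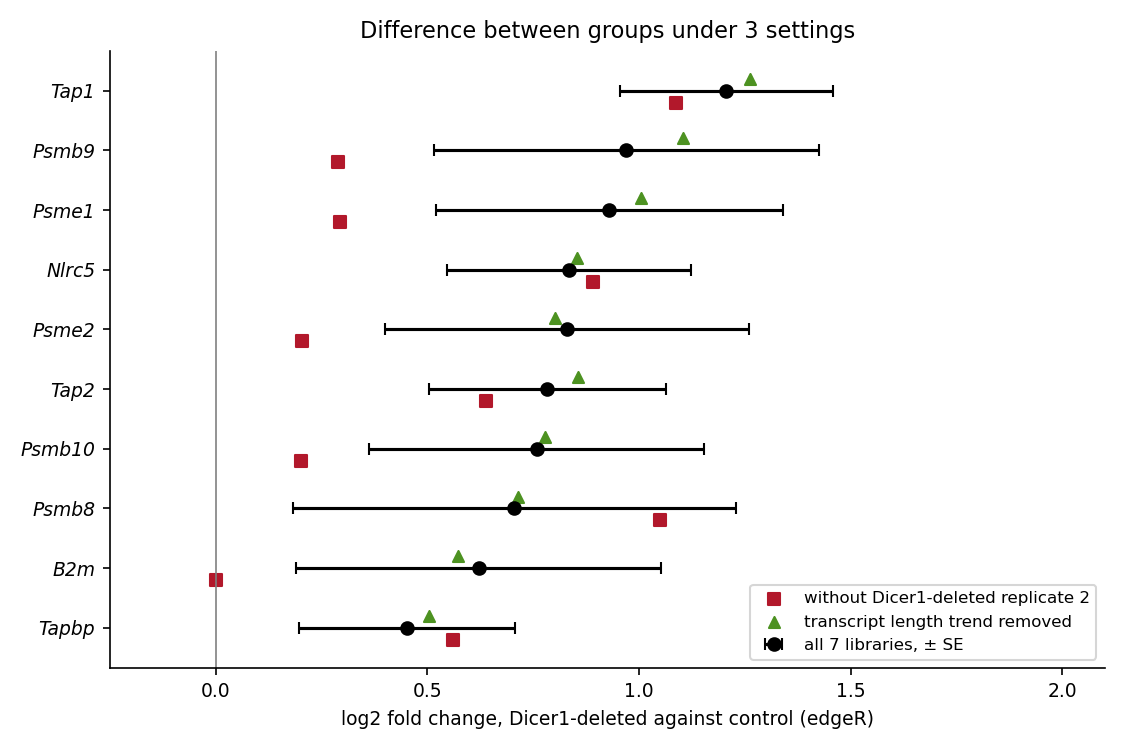
Log2 fold change of each gene, Dicer1-deleted against control, from edgeR with all 7 libraries (black, ± SE), without Dicer1-deleted replicate 2 (squares) and with the transcript length trend removed (triangles). Without that library B2m falls to 0.00 and Psmb9, Psmb10, Psme1 and Psme2 to between 0.20 and 0.29, while Tap1 stays at 1.09 and Nlrc5 at 0.89.

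Other genes of the pathway were read off the same fit, in lists that share no gene with the 10, and edgeR called 0 genes in any of them. The 3 constitutive catalytic subunits stood at a median of 0.24 on the log2 scale and the 11 other subunits of the 20S core at 0.28, all 14 above 0, and the medians were -0.28 and -0.22 without Dicer1-deleted replicate 2. Psmb4, a structural core subunit, was the farthest from 0 at 0.84 ± 0.34 and did not overlap between groups. The 18 subunits of the 19S regulator, which unfolds ubiquitin-tagged proteins, lay 9 above and 9 below 0, with a median of 0.00. Adrm1, one of its ubiquitin receptors, was at 0.76 and Psmc1, an ATPase, at -0.32. The 8 further activators and assembly factors split 4 and 4, with a median of 0.10, and Pomp, the chaperone that matures new cores, was at 0.55.

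Of 6 genes of loading and trimming in the endoplasmic reticulum 5 were above 0, with a median of 0.39. Pdia3, the thiol oxidoreductase of the loading complex, was at 0.70 and Tapbpl, which edits peptides outside that complex, at 0.74, while Canx, a chaperone of new heavy chains, was at -0.16. The trimming peptidase Erap1 was at 0.39 and ran from 43.3 to 256 CPM within the Dicer1-deleted group. The 6 cytosolic peptidases had a median of 0.23, with Blmh at -0.44 and the other 5 above 0.

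Of the 15 genes of the interferon signal chain 11 were above 0, with a median of 0.48. Ifngr2, a chain of the interferon-gamma receptor, was at 97.0, 103 and 107 CPM against 62.3, 67.1, 74.3 and 67.4 CPM. Its groups did not overlap, at 0.60 ± 0.22, and it did not pass in edgeR (adjusted p = 0.462) or DESeq2 (adjusted p = 0.0526). Irf1, a transcription factor that carries the interferon-gamma signal to class I genes, was at 0.75 and overlapped between groups. Ifng itself was at 1.29, 0.152 and 0.427 CPM against 0 to 0.365 CPM, named here although it lies below the level set for named genes.

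**Figure D4:**
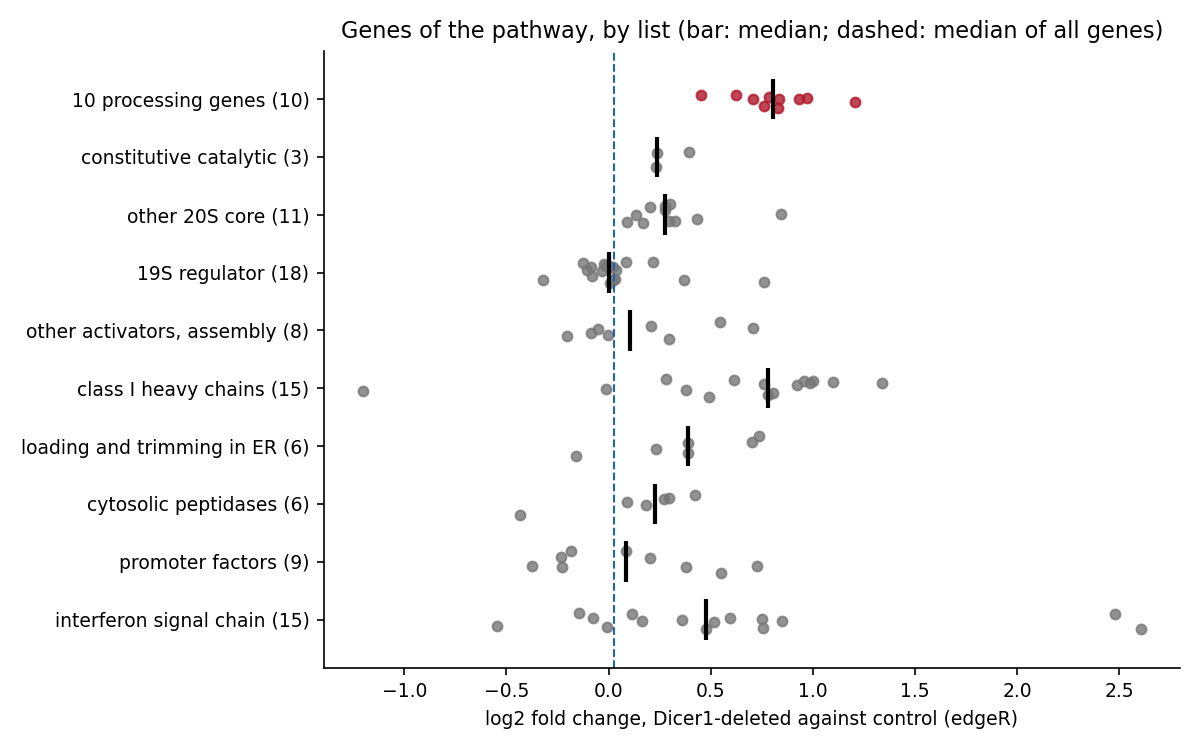
Log2 fold change (edgeR, Dicer1-deleted against control) of each tested gene, with the 10 processing genes in red, the other lists in grey, a black bar at each median and a dashed line at the median of all genes, 0.03. The medians are 0.81 for the 10 genes, 0.78 for the heavy chains, 0.48 for the interferon chain and 0.00 for the 19S regulator.

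Markers of other cells moved with the groups in part. The 7 markers of conventional type 1 dendritic cells, which present antigen on class I, summed to 114 to 158 CPM in the Dicer1-deleted and 63.1 to 76.0 CPM in the control libraries. Irf8, which macrophages also express, and Wdfy4 carried most of that sum. Xcr1 was at 2.64 to 5.51 CPM against 0.474 to 1.504 CPM, Batf3 at 1.83 to 4.73 against 0.545 to 1.31 CPM and Clec9a at 0.789 to 1.22 against 0.0449 to 0.503 CPM. Xcr1, Batf3 and Irf8 rose in DESeq2 (adjusted p = 7.56e-04, 0.0191 and 0.0108), while edgeR called 0 of the markers in any of these lists. Flt3 and Zbtb46 went the other way, at log2 fold changes of -1.64 and -0.93 that passed in neither tool. Flt3 was at 0 to 0.555 against 0 to 1.34 CPM and at 0 in 3 libraries, 1 of them a control. Zbtb46 was at 0.457 to 1.75 against 1.08 to 3.90 CPM. The 14 markers of T and NK cells summed to 11.5 to 25.3 against 12.8 to 14.7 CPM, highest in Dicer1-deleted replicate 1. Of the 12 tested 9 were above 0, with a median of 1.14. Nkg7 rose in DESeq2, at 2.64 to 6.02 against 0.673 to 1.73 CPM (adjusted p = 0.0410), and Cd2 fell, at 1.32 to 1.88 against 3.90 to 7.66 CPM (adjusted p = 7.43e-04). Cd3g did not overlap, at 1.29 to 1.66 against 0.0898 to 0.729 CPM. The 6 B cell markers summed to 41.4 to 51.6 against 12.1 to 19.5 CPM, almost all from Bank1 and Cd79b. Both of these rose in DESeq2 (adjusted p = 2.48e-05 and 0.0161), and Pax5 and Cd79a were at or near 0 in every library. The 8 markers of epithelial, fibroblast and endothelial cells summed to 45.7 to 82.1 against 17.5 to 23.8 CPM, mostly Pecam1. Pecam1 rose in DESeq2 (adjusted p = 2.67e-05), and Epcam was at or near 0. The 6 neutrophil markers summed to 50.7 to 103 against 32.2 to 81.2 CPM, with Ly6g at 0 in all but 1 library. The part of these cells in the levels of the 10 genes was not tested. In sorted bulk RNA a higher level per cell and a larger share of high-expressing cells cannot be told apart.

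Among the other tested genes with a mean of at least 5 CPM, the 10 whose pattern over the 7 libraries was most like the mean of the processing genes were Gpr18, Ctsh, Slc43a2, Il18bp, Ppt2, Tle3, Sh2d1b1, Tifab, Ass1 and Cxcl10. The Pearson correlation with the mean standardized log2 CPM ran from 0.99 for Gpr18 to 0.97 for Cxcl10, over 7 libraries that share scaling and length trend. Gpr18 was at 33.2, 61.9 and 18.5 CPM against 11.8, 10.2, 4.63 and 13.0 CPM, while Tle3 overlapped between the groups. Cxcl10, a chemokine that attracts T cells, was at 483, 837 and 406 CPM against 231, 220.2, 187 and 217 CPM. Il18bp, a secreted inhibitor of interleukin 18, was at 87.1, 223 and 61.2 CPM against 33.2, 39.9, 14.5 and 42.9 CPM. Gpr18, Cxcl10 and Il18bp were highest in Dicer1-deleted replicate 2 and lowest in control replicate 3, as was the mean profile by which they were chosen.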

How the data were processed

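RNA was measured per gene in 3 Dicer1-deleted and 4 control libraries. Per the labels, cDNA was amplified with the SMARTer kit from 2 ng of RNA and libraries were made with Nextera XT and sequenced for 50 cycles per mate, without keeping strand. The submitters' processing notes name Bowtie2. Build, annotation and counter were not given in the sources used here. The authors deposited counts of uniquely placed reads, all even, so that both mates were counted. They also deposited expected counts, which add shares of multiply placed reads and were rounded for an alternative, and RPKM values, used for levels per length and in an alternative for the subunit ratios.

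Genes not listed in a library were set to 0 (31124 values). Symbols came from Ensembl IDs (21813) or, for 200 IDs, Psmb9 among them, from the Entrez ID in the files, and 2073 had none. Counts were tested in edgeR 4.0.16 (R 4.3.3) by its quasi-likelihood F test after filterByExpr and TMM scaling, without covariates, and p-values were adjusted by Benjamini-Hochberg over 16226 genes (threshold 0.05). A positive log2 fold change means a higher level in Dicer1-deleted libraries. Each SE was taken from the fold change and its F statistic. DESeq2 1.42.0 and limma 3.58.1 were alternatives. Subunit ratios were compared by an exact permutation test. Transcript lengths, known for 95% of tested genes, gave a lowess trend per library. The workflow was tested on simulated data, where edgeR missed most 2-fold changes and DESeq2 called more unchanged genes than edgeR did. The share of unchanged genes among DESeq2's calls there was far above the threshold of 0.05.

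The members and lists were chosen with earlier results of these data known. Named were the 10 genes, their counterparts, Dicer1, in each list the called genes and up to 4 with the largest change at a mean of at least 5 CPM, and the 10 genes most alike in pattern. Ifng, Canx, Clec9a and other markers are named beyond that rule, a choice made with the values known, and some genes within it are left out. Added after the values were seen were the length trend, the sum of Psme2 and Psme2b, DESeq2 with each library left out and the split by length trend.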

Additional observations from a re-analysis of the deposited data

Results flagged for a closer look

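Nlrc5 in control replicate 4, at 47.7 CPM, stood apart from control replicates 1 to 3, at 25.9 to 28.7 CPM. The gap to the nearest control was 0.873 of the range of the 4 controls, above the 95% critical value of Dixon's test. Chance gives such a gap in about 1 of 20 groups, and 13 groups of 4 controls were looked at. Without this library Nlrc5 passed in DESeq2 at a log2 fold change of 1.11 (adjusted p = 0.00193), against 0.85 (adjusted p = 0.170) with it. In edgeR it did not pass without this library either (adjusted p = 0.259).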

How the results depend on the processing

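Under the alternatives run on single genes, all 212 log2 differences of the 10 genes were positive and none reversed. Of these, 211 kept their side of the threshold, and Tap1 passed in DESeq2, which called 1 of the 10 genes against 0 in edgeR. All 212 come from the same 7 libraries, so their shared sign is no separate support. The lowest was B2m at 0.0017 without Dicer1-deleted replicate 2. The number of genes called among all tested was 4. It was 42 with no count filter, 1 with a filter of 10 CPM in 3 libraries, 7 with legacy=FALSE, 0 with the code in the titles as covariate, 405 in DESeq2, 2 in limma-voom and 80 in limma-voom with quality weights. It was 11 with the length trend removed, also when Dicer1-deleted replicate 2 was left out as well. With each library left out in turn it ran from 0 to 3. The cause of these differences was not tested. Of these settings only DESeq2 called any of the 10.

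The median log2 fold change of the 10 genes ran from 0.43 (without Dicer1-deleted replicate 2) to 1.02 (without Dicer1-deleted replicate 3), and was 0.46 without Dicer1-deleted replicate 2 and with the length trend removed. From 3 to 7 genes were without overlap when each library was left out, 7 without Dicer1-deleted replicate 3, where fewer samples remain. The number was 2 without TMM factors, where Nlrc5 overlapped, and 4 with DESeq2's size factors, where Tapbp did not. The share of all genes without overlap was not computed under these settings, so these counts have no background. In the higher direction that share was 3.86% with all 7 libraries. It was 18.98% among the 4 libraries without high short transcripts, 2 of each group. The 7 is therefore not read as a result about these genes. The log2 difference of the Psmb8 to Psmb5 ratio ran from -0.029 to 1.49 and turned to -0.029 without Dicer1-deleted replicate 1. That of Psmb9 to Psmb6 ran from 0.63 to 0.83 with each library left out, and was 0.69 and 0.84 within the codes of the titles. No paired analysis was possible because the labels number the libraries through and the groups share no number.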
